A study of Homo sapiens with 6 samples.

Results

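The genes described here are 10 members of the tumour necrosis factor (TNF) superfamily, 3 ligands and 7 receptors, among the 58735 genes of the deposited table. They were taken by gene name: the ligands TNFSF10, TNFSF9 and TNFSF15 and the receptors TNFRSF1A, TNFRSF21, TNFRSF10A, TNFRSF10B, TNFRSF12A, TNFRSF11A and LTBR. The 6 RNA-seq libraries came from T84, an established colorectal cancer line of human epithelial cells. In 3 libraries the cells carried a control short hairpin RNA (shControl, genotype labelled WT) and in 3 a hairpin against ACSL4 (shACSL4, genotype labelled as an Acsl4 knockdown). The series text calls the second group a knockout, no drug or cytokine treatment is labelled, and how many hairpins were used is not stated. Separate cultures are not named for the libraries either, so p-values cover only differences among these libraries, and that spread may be technical.

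TNF superfamily ligands are mostly trimeric membrane proteins that can be shed, and their receptors carry cysteine-rich repeats outside the cell. Death receptors hold a death domain inside the cell, through which they recruit adaptors such as FADD and TRADD and can start caspase-dependent death or NF-kB signalling. Other receptors of the family lack this domain and bind TRAF adaptors directly. In the intestinal epithelium these receptors take part in the response to immune cells, in cell turnover and in the sensing of inflammatory ligands.

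Total counts ranged from 14740383 to 17620630 per library, and 3 counts correspond to 0.171 to 0.202 CPM (counts scaled to TMM-adjusted library size). ACSL4 itself was at 75.5, 72.2 and 72.0 CPM in the shControl libraries and 10.3, 9.12 and 11.1 CPM in the shACSL4 libraries. All 10 markers of intestinal epithelium were tested, with summed levels of 6884 to 8152 CPM in shControl and 7980 to 9289 CPM in shACSL4. By the test described below, 5 of them were called higher and 2 lower in shACSL4. Over all genes tested 24.0% were called higher and 23.1% lower. The 5 markers of T and NK cells, a common source of TNF family ligands, summed to 0.377 to 0.942 CPM in shControl and 0.190 to 0.257 CPM in shACSL4, and CD3E and CD2 had no count. The 5 macrophage markers summed to 2.38 to 2.76 CPM in shControl and 1.33 to 1.94 CPM in shACSL4, and the lists of B cell, fibroblast and endothelial markers to at most 4.37 and 2.51 CPM. The part of the small macrophage difference in the results was not tested. MARCO, PDGFRA and KDR of these lists had no count in any library.

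Of the 10 members, 5 were lower and 1 was higher in shACSL4. The falls were in the ligand TNFSF9 and the receptors TNFRSF21, TNFRSF10A, TNFRSF11A and LTBR, and the rise was in the ligand TNFSF15. The other 4, TNFSF10, TNFRSF1A, TNFRSF10B and TNFRSF12A, did not pass the test. Genes were called at an adjusted p under 0.05 in edgeR's quasi-likelihood test, which called 47.2% of the 15694 genes tested, 24.0% higher and 23.1% lower. Groups did not overlap for 7 members, against 55.1% of all genes tested. The median log2 fold change (shACSL4 over shControl) was -0.27 over the members and 0.01 over all genes tested. All 10 members passed the filter on low counts in each group on its own. Apart from TNFSF9, the members changed by less than 1 on the log2 scale. Against a fold of 1.2 the calls were TNFSF9, TNFRSF21 and TNFRSF10A lower and TNFSF15 higher, where that test called 29.6% of all genes and 14.1% as lower. The authors' deposited table gives adjusted p-values under 0.05 for the same 6 members, with log2 fold changes from -2.13 (TNFSF9) to 0.55 (TNFSF15). In a culture measured in bulk, a lower level in every cell and fewer cells that express the gene cannot be told apart.

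**Figure D1:**
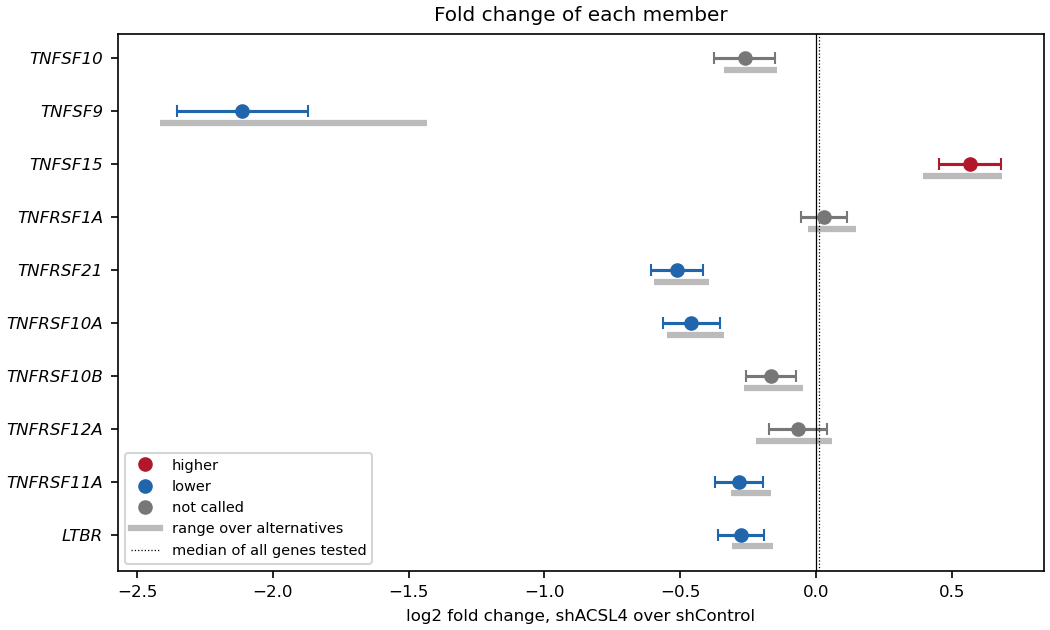
Log2 fold change of each member (x axis, shACSL4 over shControl) with its SE from edgeR, coloured by call, over a grey bar for its range over 17 alternatives. TNFSF9 lies far to the left at -2.11, TNFSF15 alone to the right at 0.57, and the bars of TNFRSF1A and TNFRSF12A cross 0.

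Promoter sequences are shown for the ligand with the largest change, TNFSF9, for 2 receptors that fell, TNFRSF21 and LTBR, and for TNFRSF1A, which did not pass the test and lies near LTBR on chromosome 12. Each is the 250 bases before the RefSeq start (GRCh38.p14), 5′ to 3′ on the gene's strand: chr19:6530776-6531025 (plus), chr6:47309906-47310155 (minus), chr12:6383912-6384161 (plus) and chr12:6342077-6342326 (minus). Capitals mark matches to the motifs named in the next paragraph, on either strand.
TNFSF9: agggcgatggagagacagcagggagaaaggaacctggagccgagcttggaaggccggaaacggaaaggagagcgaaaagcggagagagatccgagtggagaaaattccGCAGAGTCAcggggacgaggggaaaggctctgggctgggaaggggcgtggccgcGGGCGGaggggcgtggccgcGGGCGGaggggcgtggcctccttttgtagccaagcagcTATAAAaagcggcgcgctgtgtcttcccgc
TNFRSF21: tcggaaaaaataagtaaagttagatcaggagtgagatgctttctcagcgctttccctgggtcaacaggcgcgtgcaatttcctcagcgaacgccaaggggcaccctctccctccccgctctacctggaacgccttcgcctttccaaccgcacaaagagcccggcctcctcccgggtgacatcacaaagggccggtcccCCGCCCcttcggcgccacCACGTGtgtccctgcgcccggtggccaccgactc
LTBR: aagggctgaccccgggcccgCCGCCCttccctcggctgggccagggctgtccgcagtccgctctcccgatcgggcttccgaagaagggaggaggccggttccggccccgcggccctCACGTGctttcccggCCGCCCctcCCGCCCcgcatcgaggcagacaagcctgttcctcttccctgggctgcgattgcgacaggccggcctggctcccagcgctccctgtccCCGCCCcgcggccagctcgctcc
TNFRSF1A: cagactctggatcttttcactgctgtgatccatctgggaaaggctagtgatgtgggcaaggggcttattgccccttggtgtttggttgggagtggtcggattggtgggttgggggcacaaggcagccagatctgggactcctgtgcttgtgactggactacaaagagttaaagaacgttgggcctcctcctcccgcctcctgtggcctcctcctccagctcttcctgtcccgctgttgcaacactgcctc

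RefSeq promoters were found for 7 of the 10 members (not for TNFRSF10A, TNFRSF10B and TNFRSF12A) and were searched on both strands for 7 motifs. The antioxidant element core TGACNNNGC was found in TNFSF9, 142 bases before the start, and in 10.9% of the 35116 promoters of the same length. TNFSF9 also holds a TATA box (TATAAA, 30 bases before the start, 10.7% of promoters) and a pair of GC boxes (GGGCGG, 42.6% of promoters). The hypoxia element core ACGTG occurs in TNFRSF21 and LTBR, in both as the palindrome that matches on each strand, and in 18.5% of promoters. Its position is 34 bases before the start in TNFRSF21 and 134 in LTBR. GC boxes were found in 4 of the 7, TNFRSF21, LTBR, TNFRSF11A and TNFSF9, and a TATA box also in TNFSF10. The AP-1 motif TGANTCA was matched in TNFSF15 (6.57% of promoters). For TNFSF15 and LTBR the whole window lies inside the deposited gene. For TNFSF9, TNFRSF1A, TNFSF10 and TNFRSF11A the RefSeq start also lies inside the gene, with part of the window before it. None of the 7 windows held the letters of the NF-kB motif, GGG and TTTCC with any 2 bases between them (1.73%), or the STAT motif TTCNNNGAA (6.57%), and TNFRSF1A held none of the 7 motifs. A match of this kind is a description of the letters and says nothing of binding.

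Among the ligands, TNFSF9 fell most. TNFSF9 (ENSG00000125657, GRCh38 chromosome 19, 6530999 to 6535928, plus strand) encodes the ligand of CD137, a costimulatory receptor of T cells. The shControl libraries held it at 7.20, 6.47 and 8.14 CPM, in the order of their replicate numbers, and the shACSL4 libraries at 1.09, 1.82 and 2.09 CPM. Every shACSL4 library lay below every shControl library, and 22.9% of the shControl mean remained. The log2 fold change was -2.11 (SE 0.24, adjusted p = 2.5e-06), and 0.994% of all genes tested fell as far or further. The counts behind it were 121, 103 and 121 in shControl and 17, 32 and 33 in shACSL4, so its relative counting error was the largest among the members. It was called in all 17 alternatives, from -2.42 to -1.43, the latter on log2(FPKM + 1). Its receptor TNFRSF9 had 22 to 37 counts in any library and was not called (log2 fold change 0.16, SE 0.32, adjusted p = 0.696).

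TNFSF15 rose. TNFSF15 (ENSG00000181634, chromosome 9, 114784635 to 114806126, minus strand) encodes TL1A, the ligand of the death receptor TNFRSF25. It was at 17.0, 14.4 and 16.7 CPM in the shControl libraries and 22.5, 24.5 and 24.2 CPM in the shACSL4 libraries. The 3 shACSL4 libraries were all above the shControl libraries (log2 fold change 0.57, SE 0.11, adjusted p = 0.000661), and it was called in all 17 alternatives (0.39 to 0.68). TNFRSF25 itself fell, from 18.7 ± 2.05 to 12.3 ± 2.71 CPM (SD, n = 3; log2 fold change -0.61, SE 0.15, adjusted p = 0.00321). The running median of the 51 tested genes around TNFRSF25 was -0.23, and relative to it TNFRSF25 was at -0.38 (adjusted p = 0.0525). The secreted decoy receptor of TL1A, TNFRSF6B, had no count in any library, and genes that overlap it were not looked up.

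TNFSF10 (ENSG00000121858, chromosome 3, 172505508 to 172523507, minus strand) encodes TRAIL, the ligand of TNFRSF10A and TNFRSF10B. It was at 23.9, 30.3 and 25.4 CPM in shControl and 21.7, 22.1 and 22.5 CPM in shACSL4. The groups did not overlap, but shControl replicate 2 stood above the others and the gene did not pass the test (log2 fold change -0.26, SE 0.11, adjusted p = 0.0636). It was called in 2 of 17 alternatives, without shControl replicate 1 (-0.34, adjusted p = 0.0421) and relative to neighbouring genes (-0.33, adjusted p = 0.0253). Without shControl replicate 2 the value was -0.16.

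**Figure D2:**
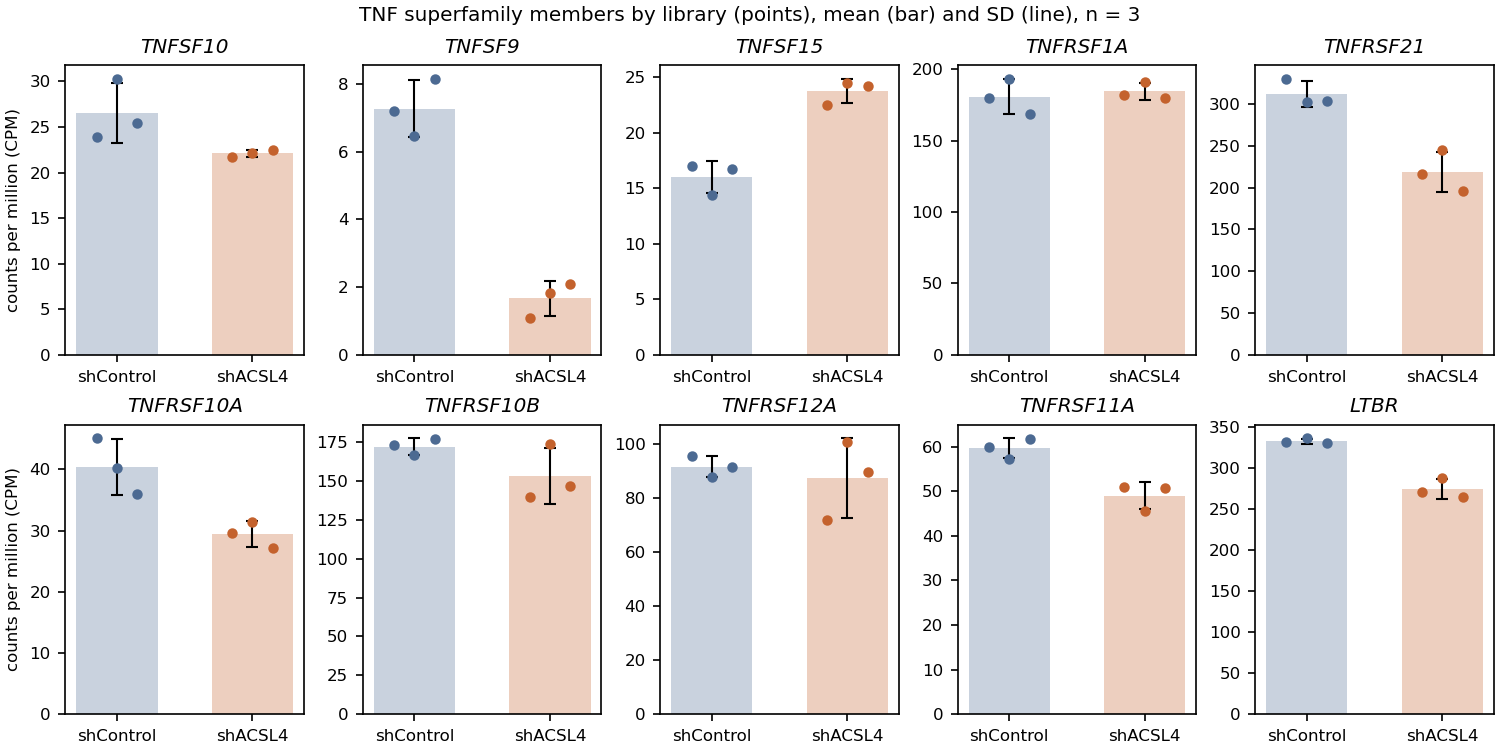
Level of each of the 10 members in CPM (y axis, from 0) in every library of the 2 groups (x axis), with points for libraries, bars for means and lines for the SD of 3 libraries. The points of the 2 groups overlap for TNFRSF1A, TNFRSF10B and TNFRSF12A and are apart for the other 7.

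Of the receptors with a death domain, TNFRSF21 and TNFRSF10A were lower in shACSL4, while TNFRSF10B and TNFRSF1A did not pass the test. TNFRSF21 (ENSG00000146072, chromosome 6, 47231532 to 47309905, minus strand) encodes death receptor DR6. It was at 330, 303 and 304 CPM in shControl and 216, 244 and 196 CPM in shACSL4, so the groups were apart. It fell by 0.51 on the log2 scale (SE 0.09, adjusted p = 0.000301) and was called in all 17 alternatives, from -0.60 to -0.40. Per length it had the highest mean of the members in both groups, with 86.3 ± 4.52 FPKM in shControl and 59.9 ± 6.83 FPKM in shACSL4 (SD, n = 3).

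TNFRSF10A and TNFRSF10B, the death-inducing TRAIL receptors DR4 and DR5, lie in the same cluster on chromosome 8, with TNFRSF10C and TNFRSF10D between them. TNFRSF10A (ENSG00000104689, 23190452 to 23225126, minus strand) was at 45.1, 40.2 and 36.0 CPM in shControl and 29.6, 31.5 and 27.2 CPM in shACSL4. Its groups were apart, and its log2 fold change was -0.46 (SE 0.10, adjusted p = 0.00173), called in all 17 alternatives (-0.55 to -0.34). On the opposite strand it overlaps AC100861.1 over 656 bases (103 counts on average, log2 fold change -0.32, adjusted p = 0.154) and TNFRSF10A-AS1 over 224 bases (44.3 counts, -0.64, adjusted p = 0.0757), and reads of these stretches cannot be told apart. TNFRSF10B (ENSG00000120889, 23020133 to 23069179, minus strand) was at 173, 167 and 177 CPM in shControl and 140, 174 and 147 CPM in shACSL4. Here shACSL4 replicate 2 lay within the shControl range while the other two were below it (log2 fold change -0.17, SE 0.09, adjusted p = 0.153). Without shACSL4 replicate 2 it was called at -0.26 (adjusted p = 0.0476). Whether the 2 receptors differed in their change was not tested. TNFRSF10D, a TRAIL receptor with a truncated death domain, fell further, from 58.7 ± 2.68 to 18.6 ± 2.95 CPM (SD, n = 3; log2 fold change -1.66, SE 0.11, adjusted p = 4.1e-09). TNFRSF11B, a secreted receptor that binds TRAIL and the RANK ligand, rose from 1.58 ± 0.134 to 8.61 ± 0.194 CPM (SD, n = 3), a log2 fold change of 2.44 (SE 0.20, adjusted p = 6.3e-08; 1.36 on log2(FPKM + 1), where the added 1 shrinks low values). TNFRSF10C, a decoy of the same cluster, had 3 counts in shControl replicate 1 and none elsewhere. In shControl, TNFRSF10B was thus at 33.2 ± 0.816, TNFRSF10D at 16.5 ± 0.649 and TNFRSF10A at 13.6 ± 1.60 FPKM. In shACSL4 they were at 29.3 ± 3.54, 5.18 ± 0.815 and 9.82 ± 0.733 FPKM (SD, n = 3 for each), with TNFRSF10D then below TNFRSF10A.

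TNFRSF1A (ENSG00000067182, chromosome 12, 6328757 to 6342114, minus strand), the broadly expressed TNF receptor, was at 180, 193 and 169 CPM in shControl and 182, 191 and 180 CPM in shACSL4. The groups overlapped throughout (log2 fold change 0.03, SE 0.09, adjusted p = 0.8), and no alternative called it (-0.03 to 0.15). The second TNF receptor, TNFRSF1B, which has no death domain, fell from 70.7 ± 4.89 to 36.3 ± 3.70 CPM (SD, n = 3; log2 fold change -0.96, SE 0.10, adjusted p = 6.0e-07). TNF itself was low, with 65, 60 and 94 counts in shControl and 12, 21 and 23 in shACSL4, and fell by 2.01 on the log2 scale (SE 0.31, adjusted p = 5.3e-05; -1.15 on log2(FPKM + 1)). FAS, a further death receptor, fell from 20.4 ± 1.06 to 14.4 ± 1.78 CPM (log2 fold change -0.50, SE 0.12, adjusted p = 0.00295), in a region where the running median of neighbouring genes was 0.42, so that relative to it FAS was at -0.92. Its ligand FASLG had no count.

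The receptors without a death domain were LTBR, TNFRSF11A and TNFRSF12A, of which LTBR and TNFRSF11A were lower in shACSL4. LTBR (ENSG00000111321, chromosome 12, 6375045 to 6391571, plus strand) encodes the lymphotoxin beta receptor, which drives the alternative NF-kB pathway. It was at 331, 336 and 331 CPM in shControl and 271, 288 and 265 CPM in shACSL4. The shControl libraries lay close together and above all shACSL4 libraries (log2 fold change -0.28, SE 0.08, adjusted p = 0.0117). The call was lost in 4 of 17 alternatives: without shACSL4 replicate 1 (adjusted p = 0.055), with library size alone as scaling (-0.16, adjusted p = 0.095), relative to neighbouring genes (-0.18, adjusted p = 0.0985) and against a fold of 1.2 (adjusted p = 0.391). LTBR overlaps SCNN1A on the opposite strand over 2686 bases. SCNN1A changed by -0.24 (adjusted p = 0.0248), and the labels do not tell whether reads were counted by strand, so reads of the shared stretch cannot be told apart. LTB, a subunit of the LTBR ligand, fell from 11.6 ± 1.38 to 5.30 ± 0.905 CPM (SD, n = 3; log2 fold change -1.13, SE 0.17, adjusted p = 4.2e-05). Its partner LTA and the second LTBR ligand TNFSF14 had no count in any library.

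TNFRSF11A (ENSG00000141655, chromosome 18, 62325287 to 62391292, plus strand) encodes RANK. It was at 59.9, 57.3 and 61.8 CPM in shControl and 50.98, 45.5 and 50.7 CPM in shACSL4. The groups were apart (log2 fold change -0.28, SE 0.09, adjusted p = 0.0134), but the call was lost without shACSL4 replicate 2 (-0.23, adjusted p = 0.0874), with library size alone (-0.16, adjusted p = 0.157) and against a fold of 1.2 (adjusted p = 0.367). The RANK ligand TNFSF11 had no count. TNFRSF12A (ENSG00000006327, chromosome 16, 3018445 to 3022383, plus strand) encodes Fn14, the receptor of TWEAK. It was at 95.7, 87.9 and 91.4 CPM in shControl and 71.8, 101 and 89.8 CPM in shACSL4. Its shACSL4 libraries spread on both sides of shControl (log2 fold change -0.07, SE 0.11, adjusted p = 0.639), and the value became 0.06 without shACSL4 replicate 1 and 0.05 with library size alone. The TWEAK gene TNFSF12 had 8, 7 and 13 counts in shControl and 3, 0 and 1 in shACSL4, under the filter. Genes that overlap TNFSF12 were not looked up.

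Per length, 6 of the 7 receptors exceeded all 3 ligands in shControl, while TNFRSF11A (6.59 ± 0.206 FPKM) lay under TNFSF10 (7.59 ± 0.976 FPKM; SD, n = 3 for each). The order in shControl ran TNFRSF21, LTBR, TNFRSF12A, TNFRSF1A, TNFRSF10B, TNFRSF10A, TNFSF10, TNFRSF11A, TNFSF9 and TNFSF15. Only TNFRSF12A and TNFRSF1A had overlapping library values among neighbours in this order. In shACSL4 the libraries of TNFRSF21, TNFRSF12A, TNFRSF1A and LTBR overlapped in turn, with LTBR moving from 52.7 ± 0.819 to 43.1 ± 2.01 FPKM and TNFRSF1A at 44.9 ± 3.31 and 45.3 ± 1.58 FPKM. At the low end TNFSF9 (4.34 ± 0.469 and 0.986 ± 0.306 FPKM) and TNFSF15 (2.02 ± 0.176 and 2.96 ± 0.142 FPKM) changed places.

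**Figure D3:**
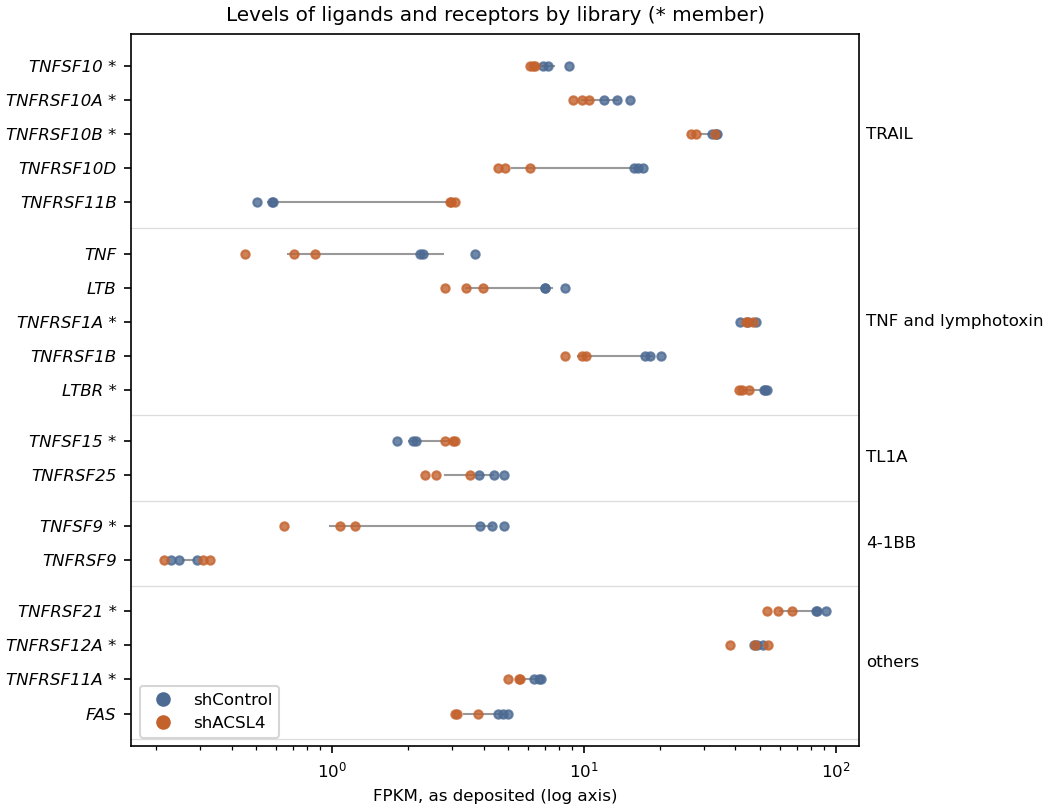
Deposited FPKM (x axis, log scale) of ligands and receptors grouped by ligand, with a point for each library and a line joining the group means. TNFRSF10D, TNF, LTB, TNFRSF1B and TNFSF9 lie to the left in shACSL4, and TNFRSF11B and TNFSF15 to the right.

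Of the 22 further receptors of the family, 10 were tested, and of these 6 fell and 2 rose. Their median log2 fold change was -0.47, against 0.01 over all genes tested. Called were 80.0% of those tested, against 47.2% of all genes tested, in a list chosen with earlier results of these data known. The falls were TNFRSF10D, RELT, TNFRSF1B, TNFRSF25, FAS and TNFRSF14, and the rises were TNFRSF11B and EDAR, the receptor of ectodysplasin. RELT went from 23.3 ± 3.62 to 10.4 ± 0.132 CPM (log2 fold change -1.16) and EDAR from 1.64 ± 0.663 to 5.57 ± 0.665 CPM (1.75, and 0.71 on log2(FPKM + 1); SD, n = 3). CD40, a receptor of T cell help, had 1 to 11 counts in any library and was not tested. Of the 15 further ligands only 4 were tested. TNF and LTB fell, and TNFSF13 and EDA did not pass the test, leaving 0 higher in edgeR and in DESeq2 (2 at an unadjusted p under 0.05). With library size alone both were called higher, a scaling that moves the median of all genes to 0.13 and the share of calls that are higher to 65.6% from 50.9%.

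Among 30 adaptors and proximal signalling genes, all tested, 10 rose and 7 fell (median log2 fold change 0.10). That is 56.7% called, near the 47.2% of all genes tested. Of the initiator caspases, those recruited by death receptors rose, CASP8 from 40.5 ± 2.79 to 59.5 ± 0.980 CPM (log2 fold change 0.55, SE 0.09, adjusted p = 7.3e-05) and CASP10 at 0.44 (0.0783 as adjusted p against a fold of 1.2). The adaptor FADD (0.23, adjusted p = 0.166) and the caspase-8 regulator CFLAR (-0.02, adjusted p = 0.846) did not pass the test. The adaptor TRADD was called higher, near the threshold (0.30, SE 0.12, adjusted p = 0.0415). FADD was called with library size alone (0.34, adjusted p = 0.0395) and without shACSL4 replicate 3 (0.34, adjusted p = 0.0393). RIPK1, a kinase of TNF receptor complexes, rose by 0.53 on the log2 scale. The 3 subunits of the linear ubiquitin ligase that acts on these complexes all rose, RBCK1 from 262 ± 9.80 to 422 ± 34.7 CPM (SD, n = 3; log2 fold change 0.69, adjusted p = 1.1e-05), SHARPIN by 0.51 and RNF31 by 0.42. OTULIN, which removes linear ubiquitin chains, fell by 0.53 and TRAF6 fell by 0.62 on the log2 scale. SHARPIN lies where the running median of the tested genes around it was 0.51, so relative to that median it was at -0.0020. RNF31 had an adjusted p of 0.0537 against a fold of 1.2. In the alternative NF-kB pathway downstream of LTBR, RELB was at 0.43 and NFKB2 at -0.26. The call of RELB was lost relative to neighbouring genes (0.18, adjusted p = 0.147) and against a fold of 1.2 (adjusted p = 0.0545), and that of NFKB2 in 5 of 17 alternatives. Without shControl replicate 3, 4 of the 30 were called lower in place of 7, and 4 also with library size alone.

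Further down, 3 of 8 genes for caspases, mitochondrial factors and inhibitors fell (median log2 fold change -0.09). Of the 8, 0 rose in edgeR, at an unadjusted p under 0.05 or in DESeq2. The share called was 37.5%, all lower. Over all genes tested 47.2% were called and 23.1% were called lower. BID, which links death receptors to mitochondria, went from 48.7 ± 3.90 to 26.4 ± 2.70 CPM (SD, n = 3; log2 fold change -0.88, SE 0.10, adjusted p = 3.0e-06). APAF1, the scaffold of the apoptosome, went from 63.0 ± 5.68 to 46.9 ± 3.27 CPM (log2 fold change -0.42, SE 0.09, adjusted p = 0.00141; SD, n = 3), with an adjusted p of 0.0503 against a fold of 1.2. The inhibitor family member BIRC5, also a mitotic gene, changed by -0.61, and relative to neighbouring genes by -0.25 (adjusted p = 0.121). XIAP, an inhibitor of caspases, was at 229 ± 19.0 CPM in shControl and 242 ± 14.6 CPM in shACSL4 (SD, n = 3) and did not pass the test, nor did CASP6, CASP9, DIABLO and HTRA2.

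**Figure D4:**
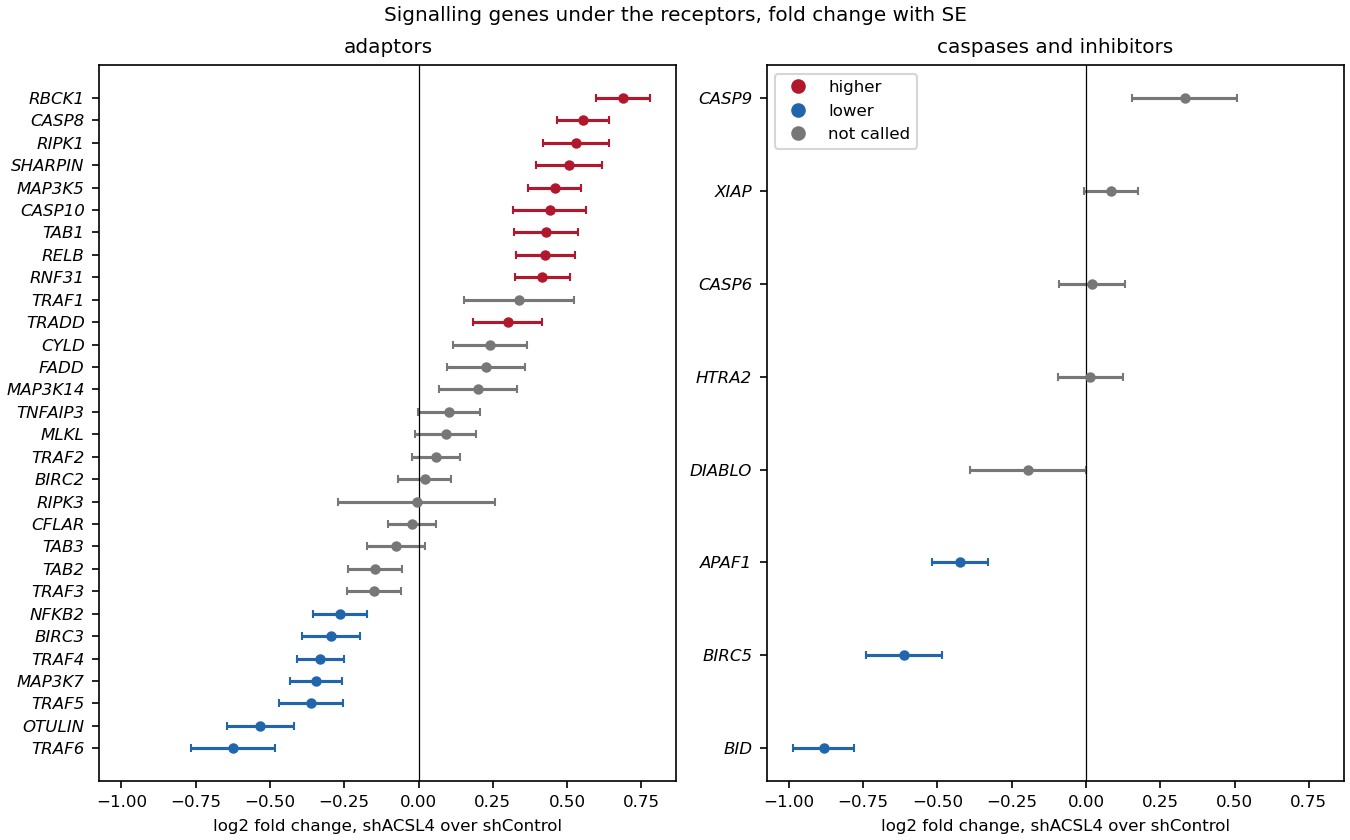
Log2 fold change with SE (x axis, shACSL4 over shControl) of the 30 adaptors and proximal genes (left) and 8 genes for caspases, mitochondrial factors and inhibitors (right), coloured by call. RBCK1, CASP8 and RIPK1 head the left panel, while BID and BIRC5 stand at the foot of the right panel.

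Of 7 genes for the shedding and cleavage of these ligands, 6 were tested, 3 fell and 2 rose (median log2 fold change -0.20). Called were thus 83.3% of those tested, against 47.2% of all genes tested, in a list chosen with earlier results of these data known. The intramembrane protease SPPL2B rose from 55.2 ± 5.01 to 100.04 ± 17.4 CPM (SD, n = 3; log2 fold change 0.86), and SPPL2A by 0.29. RHBDF2, which escorts the TNF-shedding protease, changed by -0.53 (-0.25 relative to neighbouring genes), and that protease, ADAM17, did not pass the test (-0.17, adjusted p = 0.173). Relative to its neighbours, whose running median was 0.52, ADAM17 was at -0.68 (adjusted p = 3.2e-05). The call of ADAM10 (-0.23, adjusted p = 0.0379) was lost in 8 of 17 alternatives. Only 1 of the 3 falls was called without shControl replicate 3, shACSL4 replicate 1 or shACSL4 replicate 2, and only 1 of the 2 rises without shControl replicate 1 or shACSL4 replicate 1.

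Among 15 genes known to respond to TNF, 6 rose and 6 fell (median log2 fold change -0.17). The share called was 80.0%, against 47.2% of all genes tested, in a list chosen with earlier results of these data known. The chemokines CXCL3 (1.49, SE 0.25; 0.91 on log2(FPKM + 1)) and CXCL8 (0.76, SE 0.18) rose. The chemokine CCL20 went from 40.2 ± 2.10 to 18.2 ± 5.16 CPM (SD, n = 3; log2 fold change -1.15, SE 0.15, adjusted p = 8.2e-06), and the mitochondrial superoxide dismutase SOD2 changed by -0.63. Without shACSL4 replicate 2, 3 of the 15 were called higher.

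**Figure D5:**
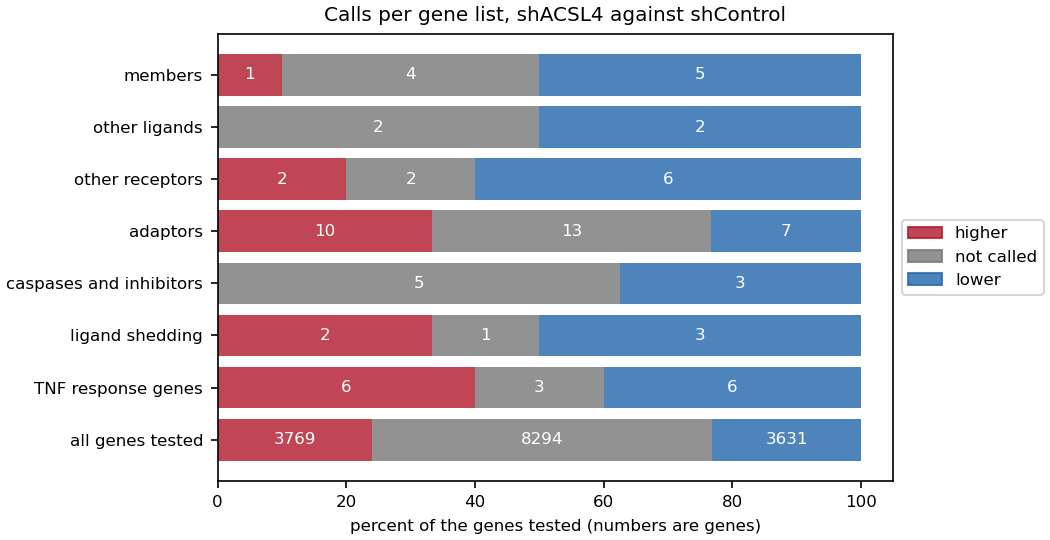
Share of the genes tested (x axis, percent) that were called higher, not called or called lower in shACSL4, for the 10 members, the 6 other lists and all 15694 genes tested, with numbers of genes in the bars. Of the 6 called members 5 are lower, while the adaptors hold 10 higher and 7 lower.

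Fold changes were also read beside the members' neighbours on the chromosome. TNFSF9 lies in a part of chromosome 19 where the running median of 51 tested genes, itself included, was 0.30, against its own -2.11. The tested gene before it, DENND1C, was at -0.03 (adjusted p = 0.808), and the tested gene after it, complement C3, at -6.02 (adjusted p = 5.2e-11), 141776 bases away. For the other members the running median lay between -0.10 (LTBR) and 0.15 (TNFRSF12A). For TNFRSF1A the running median was its own value, 0.03, so the setting relative to neighbouring genes could not call it. TNFRSF1A sits 251 bases from PLEKHG6, which changed by -1.04 (adjusted p = 5.0e-08), and TNFRSF10B overlaps RHOBTB2 by 67 bases on the opposite strand, which changed by 1.04 (adjusted p = 0.000305). RHOBTB2 had 105 counts on average, and TNFRSF10B had 2178 to 3051 counts in any library.

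The genes with the nearest profiles were found by the Euclidean distance between mean-centred log2 CPM over the 6 libraries. The same libraries give the fold changes, so similar fold changes follow from this choice. For TNFSF15 they were MSANTD2 (distance 0.05), FAN1 (0.06) and ZNF182 (0.09), with log2 fold changes of 0.58, 0.56 and 0.59. For TNFSF9 they were the noncoding AC090204.1 (0.30), the cytokine gene IL1B (0.33) and the histone gene HIST1H2BJ (0.34), with log2 fold changes of -2.48, -2.31 and -2.27. IL1B was at 3.27 CPM in shControl and 0.651 CPM in shACSL4, a low level like that of TNFSF9.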

How the data were processed

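RNA-seq libraries of T84 cells, 3 shControl and 3 shACSL4, were prepared from ribosomal RNA-depleted total RNA, per the labels' protocols. CASAVA, HISAT2 and GRCh38 (hg38) are named in the submitters' processing notes. How reads were counted, and whether by strand, was not given in the sources used here. Overlapping genes were looked up for the members only. For other genes, absent or low expression cannot be told apart from reads lost to an overlapping gene. The authors deposited raw read counts per gene and FPKM values per library, per the file headers. The same deposited table holds the authors' group mean signal, log2 fold changes, p-values and adjusted p-values, per the file headers. Control columns carry the prefix NC. With shAcsl4 the only other prefix, they were assigned to shControl and matched by number.

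Fold changes, tests and CPM were computed from the counts over all genes kept by filterByExpr, with TMM scaling, by the quasi-likelihood test of edgeR 4.0.16 (R 4.3.3) without covariates and Benjamini-Hochberg adjustment over all 15694 genes tested. The SE is the absolute log2 fold change over the square root of the F statistic. FPKM values were used as deposited to compare levels between genes. The running median was taken over 51 tested genes, the gene itself included, or fewer at chromosome ends. It was treated as a known constant, and its own error does not enter the setting relative to neighbouring genes. As alternatives, the counts were fitted with DESeq2 1.42.0 and with limma-voom (limma 3.58.1). Scaling was replaced by median-of-ratios factors or by library size alone, and the filter by 1 count in all or by a mean of 50 counts or more. FPKM values were fitted with limma-trend after adding 1 or 0.1 and taking log2. Further settings added a replicate block, left out single libraries, tested against a fold of 1.2 or took values relative to neighbouring genes. Where a library is left out, the remaining libraries share 1 estimate of spread. The steps were tested on simulated data with 50 genes changed at each fold, far fewer in all than were called here. Recovered as calls in the right direction were 16% at a fold of 1.25, 52% at 1.5, 82% at 2 and 90% at 4. Of the simulated calls, 3.23% were false. Small changes can thus be missed, and a gene that did not pass the test was not shown to be unchanged.

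The members and gene lists were chosen with earlier results of these data known. The shares called in them are therefore descriptions and not tests of the lists. Of the caspases and inhibitors, 2 genes are not reported here and were taken out of the list. The members, their ligands and sister receptors, the nearest tested neighbours, the nearest profiles and up to 4 called genes per list with the largest change, among those with non-overlapping groups and 50 or more counts on average, were named by rule. CASP10, FADD, TRADD, CFLAR, RIPK1, RNF31, SHARPIN, RELB and NFKB2 were chosen after their values were seen. So were TNFRSF25, TNFRSF9, ADAM17, XIAP and the genes listed by name alone. The labels name no molecular identifiers, so reads need not be separate molecules and floors from counts cover counting error only.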

Additional observations from a re-analysis of the deposited data

How the results depend on the processing

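Of 238 list counts recomputed under the 17 alternatives, 218 stayed within 1.5 times. With library size alone, 3 members, 4 adaptors and 1 shedding gene were called lower and 2 other ligands higher. Against a fold of 1.2, 3 members were called lower, 5 adaptors higher and 2 lower, and 1 shedding gene each way. With a mean of at least 50 counts 1 other ligand was called lower, since TNF fell under that filter, and relative to neighbouring genes 1 other ligand was called higher. Leaving out each library gave 0 to 1 other ligands higher (1 without shControl replicate 1 or shACSL4 replicate 1), 1 to 2 shedding genes higher, 1 to 3 shedding genes lower, 4 to 8 adaptors lower and 3 to 5 TNF response genes higher, and 4 to 6 members lower. TNFSF9, TNFRSF21, TNFRSF10A and TNFSF15 were called in all 17. The sign changed for TNFRSF12A (0.052) and CFLAR (0.10) with library size alone and for SHARPIN (-0.0020) relative to neighbouring genes. Leaving out each library gave -0.030 to 0.077 for TNFRSF1A, -0.18 to 0.058 for TNFRSF12A and -0.042 to 0.019 for CFLAR. The cause was not tested, apart from fewer genes or samples where an alternative removes them. Same-numbered libraries did not deviate together (correlations of 0.06, -0.0013 and 0.01), and not every library correlated best with its own number. With the replicate number as a block, 5 members were called lower and 1 higher, and no list count changed. Of the 15 further ligands, 11 were under the filter on low counts. At these counts low expression, limited depth and reads lost to overlapping genes cannot be told apart.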
